A study of Mus musculus with 28 samples.

Results

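The genes of the mitochondrial genome were taken as all genes of the count files that the GENCODE M21 annotation of mouse build GRCm38 places on chromosome MT, 37 genes whose symbols all carry the prefix mt-. They are 2 ribosomal RNA (rRNA) genes, 22 transfer RNA (tRNA) genes and 13 protein-coding (mRNA) genes, out of 29878 genes listed. Their counts were read from 28 RNA-seq libraries of dissected brain tissue from adult male mice, 2 to 3 months old, on a C57Bl/6 background. The mice were wild type (WT), heterozygous (Het) or homozygous (KO) for a disrupted histidine decarboxylase gene (*Hdc*), the enzyme that makes histamine, carried in the germline. There were 2 WT, 3 Het and 2 KO libraries of the dorsal striatum, 3 WT, 3 Het and 2 KO of the ventral striatum, the same numbers of the hypothalamus, and 1 WT, 2 Het and 2 KO of the motor cortex. Libraries are named here by genotype, region and the digit of their name, which runs from 1 to 8 and is taken as the number of the mouse. No source says that each digit is a separate animal, so p-values measure the spread between these libraries.

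Mitochondria keep a small circular genome of their own. It is transcribed from both strands as long precursors that are cut into rRNAs, tRNAs and mRNAs, with tRNAs lying between many of the other genes as the points of cutting. The mRNAs code for core subunits of the respiratory chain and of ATP synthase, the rRNAs and tRNAs serve the mitochondrial ribosome, and all other proteins of the organelle, those that copy, transcribe and process this genome included, are coded in the nucleus. Of the mitochondrial mRNAs only mt-Nd6 is coded on the light strand. In brain tissue mitochondrial transcripts are abundant. In bulk tissue, fewer cells of a type and less RNA per cell cannot be told apart.

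Libraries held between 3536802 and 5150280 counts on genes. Sums of marker genes followed the labelled regions: the 10 genes of striatal spiny neurons summed to between 10728 and 15364.5 CPM of nuclear counts in the dorsal striatum (CPM is the count scaled to a common total, here that of the nuclear genes) and between 2841 and 6487 in the ventral striatum, against at most 401 elsewhere. The 8 genes of cortical excitatory neurons reached 2958.5 to 3204 in the motor cortex and at most 891 elsewhere, and the 8 hypothalamic neuron genes reached 257 to 440 in the hypothalamus and at most 18.4 elsewhere. *Hdc* had 0 to 6 counts in WT libraries outside the hypothalamus, 17 to 33 in Het and 29 to 51 in KO libraries there, and 54 to 117 in hypothalamic libraries of all genotypes. These counts cover the whole gene, so they do not check the disrupted part. Within the ventral striatum the spiny neuron sum was lowest in KO replicate 8, and in the dorsal striatum KO replicate 8 had 5770 CPM of nuclear counts on choroid plexus genes, against 174 to 372 in the other 6 libraries.

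Of the 13 protein-coding genes, 7 were well counted and 6 were nearly empty, and the empty ones lie next to each other on the genome. mt-Nd1, mt-Nd2, mt-Co1, mt-Nd4, mt-Nd5, mt-Nd6 and mt-Cytb had at least 3253 counts in every library and together took 99.98% of the mitochondrial mRNA counts. This set of 7 was drawn up after the counts had been seen. mt-Co2, mt-Atp8, mt-Atp6, mt-Co3, mt-Nd3 and mt-Nd4l had at most 25 counts in any library and 956 counts over all 28 libraries, out of 5675936 on mitochondrial mRNAs. They code for 2 subunits of cytochrome c oxidase, 2 of ATP synthase and 2 of complex I. Per kilobase, the mean count over libraries was 809314 for mt-Rnr1 and 351666 for mt-Rnr2, the RNAs of the small and the large ribosomal subunit. Among the well-counted mRNA genes it lay between 9051 for mt-Nd6 and 37998 for mt-Cytb, and among the other 6 between 1.23 for mt-Atp8 and 18.1 for mt-Co3.

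**Figure D1:**
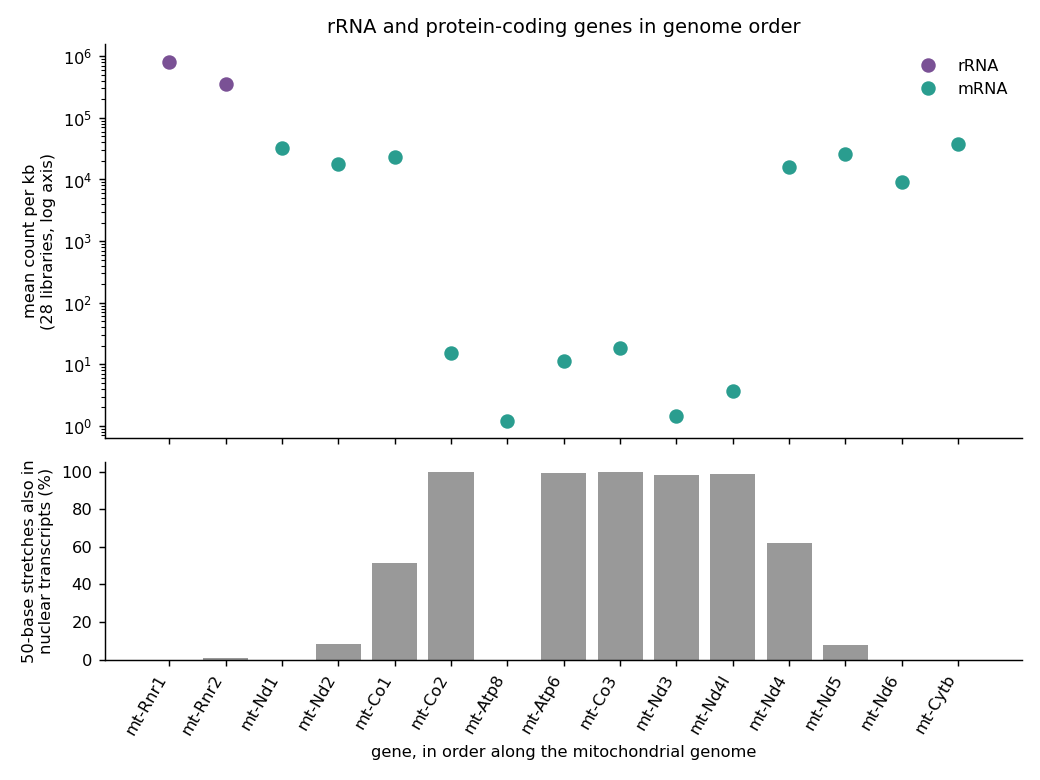
Upper panel: mean count per kilobase over 28 libraries, on a log axis, of the 2 rRNA and 13 protein-coding genes in their order along the genome. Lower panel: percentage of the 50-base stretches of each gene that also occur in an annotated nuclear transcript. From mt-Co2 to mt-Nd4l all 6 genes are under 20 counts per kilobase, and in 5 of them at least 98.0% of the stretches are shared, mt-Atp8 being the exception at 0.

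The empty genes coincide with sequence that the nucleus also holds. The authors counted reads that mapped to a single place, and reads were 50 bases long. Chromosome 1 holds 7 annotated copies of mitochondrial genes in a row, on the reverse strand of chr1:24611535-24616197, a block of 4663 bases in GRCm38. In it, Gm28661 matches mt-Co2 over 681 of its 684 bases with 0 mismatches, Gm10925 matches mt-Atp6 over 678 bases with 0 mismatches, Gm28437 matches mt-Co3 over 783 bases with 0 mismatches and Gm28438 matches mt-Nd3 over 345 bases with 1 mismatch, T3C (mitochondrial base, position from the start of the gene, nuclear base). Gm10222 matches mt-Nd4l over 294 bases with 0 mismatches. At the ends of the block, Gm29216 covers bases 1054 to 1545 of mt-Co1 and Gm28439 covers bases 1 to 876 of mt-Nd4, so that both genes keep a stretch of their own. The first 60 bases of mt-Co2 and of its copy are given here because no read of this length can tell them apart, and the 60 bases at the outer end of the mt-Co1 copy because they are where the match begins. Capitals mark bases that differ between the members of a pair, and all are written 5′ to 3′ on the coding strand, from GENCODE M21 transcripts.
mt-Co2, chrMT:7013-7072, forward strand: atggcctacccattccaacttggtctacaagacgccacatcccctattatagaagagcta
Gm28661, chr1:24615506-24615565, reverse strand: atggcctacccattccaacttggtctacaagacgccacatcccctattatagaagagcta
mt-Co1, chrMT:6381-6440, forward strand: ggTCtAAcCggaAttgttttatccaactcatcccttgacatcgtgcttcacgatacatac
Gm29216, chr1:24616138-24616197, reverse strand: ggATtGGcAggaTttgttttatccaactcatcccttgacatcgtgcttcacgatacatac

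In the mt-Co1 pair the differences are T1056A, C1057T, A1059G, A1060G, C1062A and A1066T, with positions counted from the start of mt-Co1, and the remaining bases up to the end of the gene are identical. Of the 50-base stretches of each gene, 100% in mt-Co2, 99.5% in mt-Atp6, 99.9% in mt-Co3, 98.0% in mt-Nd3 and 98.8% in mt-Nd4l also occurred in a nuclear transcript, compared with 62.2% in mt-Nd4, 51.1% in mt-Co1, 8.19% in mt-Nd2, 7.61% in mt-Nd5 and 0 in mt-Nd1, mt-Nd6, mt-Cytb and mt-Rnr1. mt-Atp8 shared none with a transcript. It lies between mt-Co2 and mt-Atp6, and the 233 bases between the copies of those genes on chromosome 1 are in no annotated transcript and were not examined. Divided by the number of stretches that are mitochondrial only, the mean count was 48.4 per start position in mt-Co1 and 44.5 in mt-Nd4, above the 39.7 of mt-Cytb and the 34.2 of mt-Nd1, whereas per kilobase of the whole gene mt-Co1 and mt-Nd4 lay below both. The order of mRNA levels per kilobase therefore depends on how shared sequence is treated. Of the nuclear copies, Gm10222 and Gm4076 were listed in the count files with 1 to 14 counts per library and Gm20594 with 0 to 4.

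The tRNA genes, between 59 and 75 bases long, held 5436 counts over all libraries, and 6 of the 22 had 0 counts in each of the 28 libraries (mt-Tw, mt-Ty, mt-Td, mt-Tk, mt-Tg and mt-Th). A count of 0 among 122446598 allows up to 2.45e-06% of all counts for each of these genes. This is a limit on uniquely mapped counts, not on RNA levels. A full 50-base read has between 10 and 26 start positions wholly inside a tRNA gene. In the union mode of counting that the authors used, a read that also overlaps a neighbouring gene is ambiguous and not counted. mt-Td, mt-Tk and mt-Tg lie between genes copied in the chromosome 1 block, where bases outside annotated transcripts were not examined. mt-Tr and mt-Ts1 lie there too, with means of 4.82 and 0.54 counts. The parts of gene length, ambiguous reads and shared sequence in the counts of 0 were not tested. The 3 most counted took 49.0% of the tRNA counts. They were mt-Tq for glutamine with a mean of 36.1 counts per library, mt-Tp for proline with 30.4 and mt-Te for glutamate with 28.5. All 3 lie on the reverse strand of the reference sequence, as do 8 of the 22 tRNA genes and mt-Nd6. The authors made the libraries from double-stranded cDNA, and the strand setting of the counting step is not given in the sources used here. Reads of these genes and reads of the other strand's precursor over the same bases therefore cannot be told apart. The same limit holds for mt-Nd6. Sequences of the 3 tRNA genes are shown because they carry the most counts, with the anticodon in capitals.
mt-Tq, chrMT:3772-3842, reverse strand: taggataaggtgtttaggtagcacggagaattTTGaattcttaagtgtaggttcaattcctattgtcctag
mt-Te, chrMT:14071-14139, reverse strand: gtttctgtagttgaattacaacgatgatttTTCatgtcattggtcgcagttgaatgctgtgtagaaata
mt-Tp, chrMT:15356-15422, reverse strand: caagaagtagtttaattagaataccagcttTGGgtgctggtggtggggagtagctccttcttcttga

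Mitochondrial genes took between 25.6% and 48.8% of the counts on genes in each library. The median share was 40.1% in the dorsal striatum (31.9% to 48.8%, n = 7), 40.0% in the ventral striatum (34.2% to 41.4%, n = 8), 31.8% in the motor cortex (25.6% to 33.9%, n = 5) and 31.2% in the hypothalamus (28.6% to 32.7%, n = 8). All 8 ventral striatal libraries lay above all motor cortical and hypothalamic ones, and in the dorsal striatum Het replicate 4, at 31.9%, and KO replicate 7, at 33.1%, lay within their range while the other 5 libraries lay above it. The rRNA genes made up most of it, with 21.7% to 41.9% of counts per library. The mRNA genes took 3.41% to 6.93%, and here the 15 striatal libraries (4.30% to 6.93%) and the 13 others (3.41% to 4.30%) met only at 4.30%, where the KO replicate 8 of the ventral striatum was below the Het replicate 5 of the hypothalamus. The tRNA genes took 0.00248% to 0.00686%. With reads taken as independent, counting error was small beside these differences. The widest 95% Wilson interval of a library was 0.0513 percentage points to either side for the mitochondrial share and 0.0235 for the mRNA share. Reads copied by PCR are not independent molecules, so these intervals are too narrow even for counting error. They also leave out the spread between libraries.

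**Figure D2:**
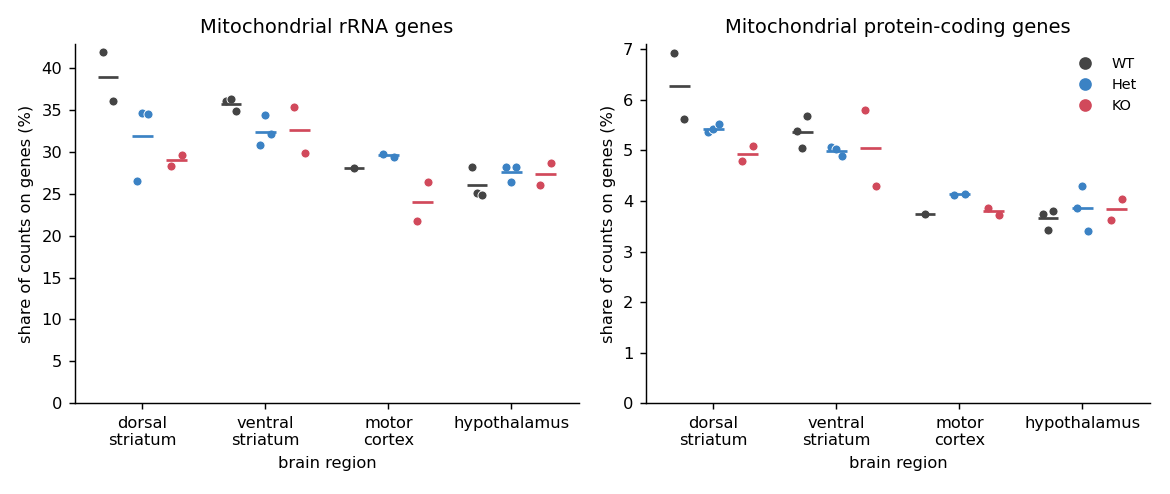
Share of counts on genes (%) taken by the mitochondrial rRNA genes (left) and protein-coding genes (right), by region and genotype. Points are libraries and lines are group means. mRNA shares are 4.30% to 6.93% in the striatal regions and 3.41% to 4.30% in the motor cortex and hypothalamus.

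When region labels were permuted among the libraries of the same mouse number, with shares on a log2 scale, region accounted for 59.3% of the sum of squares of the mitochondrial share (permutation test, one-sided for a larger sum of squares between regions, p = 6e-05, Benjamini-Hochberg adjusted over the 4 shares p = 0.00012). It accounted for 79.7% in the mRNA share (permutation p = 3e-05, adjusted p = 0.00012), 52.8% in the rRNA share (permutation p = 0.00017, adjusted p = 0.000227) and 55.2% in the tRNA share (permutation p = 0.00038, adjusted p = 0.00038). With all tallied reads as the total, unaligned and unassigned ones included, the part of region was 31.3% in the mitochondrial share (permutation test, adjusted p = 0.00867), 25.5% in the rRNA share (adjusted p = 0.0196), 40.4% in the tRNA share (adjusted p = 0.00376) and 60.3% in the mRNA share (adjusted p = 0.00024). A share is a fraction of a fixed total, so a high mitochondrial share lowers the share of all nuclear genes. The TMM factors, which edgeR uses to correct for this, ran from 0.734 in the library with the highest mitochondrial share (WT replicate 1 of the dorsal striatum) to 1.22.

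Gene by gene, counts were scaled by library size and TMM factor to CPM over all genes, and each region was compared with each other region over the 3 genotypes with edgeR's likelihood ratio test. A gene was tested if it passed 1 CPM in at least 2 libraries. This left 14979 genes, with 25 of the 37 mitochondrial ones among them, namely both rRNA genes, 10 mRNA genes and 13 tRNA genes. The 12 left out were mt-Atp8, mt-Nd3, mt-Nd4l and 9 tRNA genes, and all of them had low counts in every region. The nearly empty mt-Co2, mt-Atp6 and mt-Co3 are among the 10 tested mRNA genes, so medians over the 10 include them. Calls were made under an adjusted p of 0.05, with Benjamini-Hochberg adjustment over all genes tested.

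In the order dorsal striatum, ventral striatum, motor cortex, hypothalamus, every mitochondrial gene called between 2 regions in the fit described was higher in the earlier one. Among the alternatives, 1 gene was called lower in the dorsal than in the ventral striatum with library size alone as the scale, and 1 without Het replicate 5, KO replicate 7 or WT replicate 1 of the dorsal striatum or Het replicate 4 of the ventral striatum. Against the hypothalamus, 20 of the 25 genes were called higher in the dorsal striatum (56.1% of all genes tested were called in either direction), 16 in the ventral striatum (43.6% of all genes) and 7 in the motor cortex (48.2%). Against the motor cortex, 17 were called higher in the dorsal striatum (43.4% of all genes) and 12 in the ventral striatum (43.6%). Between the striatal regions, 6 were called higher in the dorsal one (29.0% of all genes). The counts in the ventral striatum against the motor cortex, in the motor cortex against the hypothalamus and between the striatal regions are near or under these background shares. With library size alone as the scale, the median over all genes lay between -0.41 and 0.06 in the 6 region comparisons, the 7 calls between motor cortex and hypothalamus were lost and the median of the mRNA genes turned from 0.22 to -0.02 there.

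The mRNA genes stood 0.80 above their hypothalamic level in the dorsal striatum on the log2 scale (median of the 10 tested, with -0.04 over all genes tested). mt-Cytb, the cytochrome b subunit of complex III, had the smallest p. It lay between 11333 and 19886 CPM in the dorsal striatum (median 13612), between 8828 and 14109 in the ventral striatum (median 11935), between 7385 and 9306 in the motor cortex (median 7811) and between 5675 and 7777 in the hypothalamus (median 6355). The dorsal striatal libraries did not overlap with those of the motor cortex or the hypothalamus. The log2 fold change of mt-Cytb was 1.09 against the hypothalamus (SE 0.09, adjusted p = 3.07e-33), 0.80 against the motor cortex (SE 0.11, adjusted p = 3.63e-13) and 0.28 against the ventral striatum (SE 0.09, adjusted p = 0.00833).

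mt-Nd2, mt-Nd4 and mt-Nd1, subunits of complex I, and mt-Co1, the catalytic subunit of cytochrome c oxidase, followed. mt-Nd2 was between 4942 and 9088 CPM in the dorsal striatum (median 5697) and between 2581 and 3399 in the hypothalamus (median 2861), a log2 fold change of 1.04 (SE 0.10, adjusted p = 2.91e-26). It was also the mRNA with the smallest p between the striatal regions, with a log2 fold change of 0.39 (SE 0.10, adjusted p = 0.000374), and its ventral striatal libraries (3421 to 5407 CPM) overlapped with the dorsal ones. For mt-Co1, the dorsal striatum (8399 to 14529 CPM, median 10293) stood above the hypothalamus (5494 to 6641 CPM, median 5753) in every library, by 0.80 (SE 0.08, adjusted p = 1.12e-22). mt-Co1 was the only mRNA gene with a smaller p than mt-Cytb between the motor cortex (6807 to 9124 CPM) and the hypothalamus, where it was higher by 0.37 (SE 0.09, adjusted p = 0.000132).

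mt-Nd4 differed by 1.13 between dorsal striatum and hypothalamus (SE 0.12, adjusted p = 7.72e-21), with 4965 to 11498 CPM against 2551 to 4146, and by 0.85 between ventral striatum and hypothalamus (SE 0.11, adjusted p = 9.33e-13). For mt-Nd1 the difference between dorsal striatum and hypothalamus was 0.89 (SE 0.09, adjusted p = 1.4e-20), with 7872 to 14800 CPM against 4598 to 5936. No dorsal striatal library of either gene overlapped with a hypothalamic one. mt-Nd6, the complex I subunit on the light strand, was at 1093 to 2132.5 CPM in the dorsal striatum, 965 to 1298 in the ventral striatum, 728 to 1060 in the motor cortex and 736 to 1027 in the hypothalamus. The dorsal striatum was called higher than the hypothalamus by 0.70 (SE 0.10, adjusted p = 4.79e-12) and higher than the motor cortex by 0.56 (SE 0.12, adjusted p = 6.73e-06). Between the striatal regions its difference was 0.20 (SE 0.10, adjusted p = 0.111) and between motor cortex and hypothalamus 0.14 (SE 0.11, adjusted p = 0.289).

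**Figure D3:**
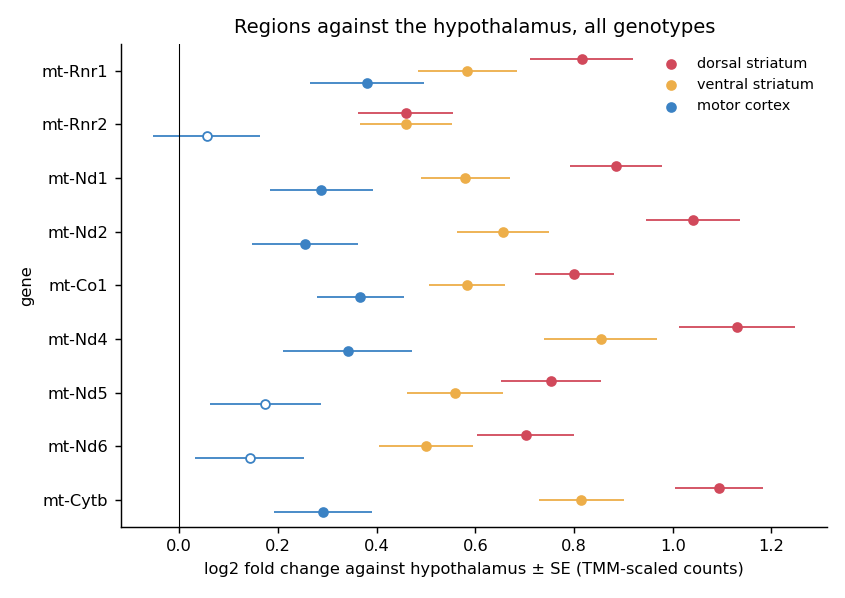
Log2 fold change against the hypothalamus (x axis, ± SE) of the 2 rRNA genes and the 7 well-counted mRNA genes, for the dorsal striatum, ventral striatum and motor cortex over all genotypes. Filled points passed an adjusted p of 0.05. Every point lies above 0, the dorsal striatum is highest for all genes but mt-Rnr2, and mt-Rnr2, mt-Nd5 and mt-Nd6 were not called in the motor cortex.

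The rRNA genes gave different values from each other. mt-Rnr1 lay between 155401 and 339955 CPM in the dorsal striatum (median 242292), between 158901 and 225232 in the ventral striatum, between 124381 and 195312 in the motor cortex and between 111687 and 150324 in the hypothalamus. Against the hypothalamus it was higher by 0.82 in the dorsal striatum (SE 0.10, adjusted p = 2.81e-14) and by 0.38 in the motor cortex (SE 0.12, adjusted p = 0.00275). mt-Rnr2 lay between 110461 and 230755 CPM in the dorsal striatum, between 121496 and 159432 in the ventral striatum, between 83290 and 128913 in the motor cortex and between 92217 and 120187 in the hypothalamus. Its difference from the hypothalamus was 0.46 in the dorsal striatum (SE 0.10, adjusted p = 6.93e-06) and 0.06 in the motor cortex (SE 0.11, adjusted p = 0.703). Between the striatal regions its difference was -0.00 (SE 0.10, adjusted p = 1).

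The ratio of mt-Rnr1 to mt-Rnr2 counts was taken within each library. It was 1.49 to 1.57 in the motor cortex, 1.28 to 1.41 in the ventral striatum and 1.09 to 1.36 in the hypothalamus, so that the motor cortex did not overlap with either, while the ventral striatum and the hypothalamus did overlap. In the dorsal striatum it was 1.33 to 1.70, with Het replicate 4 lowest and the other 6 libraries between 1.47 and 1.70. A ratio within a library does not depend on its total, and it shows unequal change, not which of the genes changed. Among the mRNA genes, mt-Cytb made up 21.1% to 24.8% of the mRNA counts in the dorsal striatum and 19.0% to 20.6% in the hypothalamus. mt-Nd5, a complex I subunit, made up 20.9% to 23.8% and 23.9% to 25.8%. In both cases the regions did not overlap, whereas they overlapped in the shares of mt-Nd1, mt-Nd2, mt-Co1, mt-Nd4 and mt-Nd6. These shares are parts of the same total, so they are not separate. mt-Nd6 made up between 1.91% and 2.71% in all libraries. The rRNA counts were 4.96 to 6.42 times the mRNA counts in the dorsal striatum and 6.15 to 8.28 times in the hypothalamus. The authors removed rRNA reads before alignment, and the sources used here do not say whether the sequences used for that included the mitochondrial rRNAs, and the effect of that step on the level of rRNA against mRNA was not tested.

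**Figure D4:**
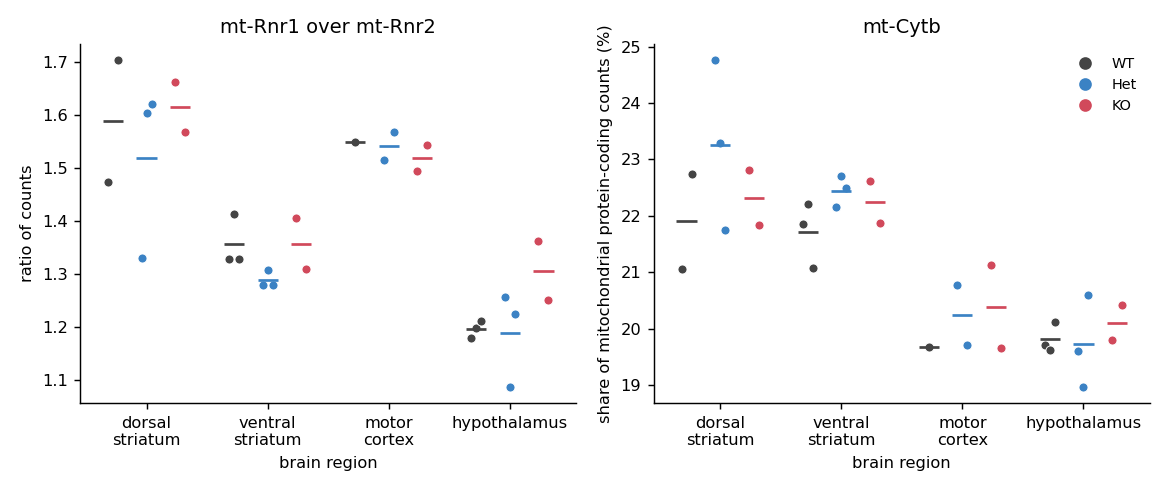
Left: ratio of mt-Rnr1 to mt-Rnr2 counts. Right: mt-Cytb as a share (%) of the mitochondrial protein-coding counts. Points are libraries, lines are group means, and the y axes do not start at 0. The ratio is 1.49 to 1.57 in the motor cortex and 1.09 to 1.36 in the hypothalamus.

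The 3 most counted tRNA genes were also higher in the dorsal striatum than the hypothalamus, at far lower levels. mt-Tq was at 8.51 to 19.0 CPM in the dorsal striatum, 6.07 to 14.8 in the ventral striatum, 4.03 to 6.004 in the motor cortex and 3.50 to 6.93 in the hypothalamus. Dorsal striatal levels were above hypothalamic ones by 1.16 (SE 0.17, adjusted p = 3.76e-11) and above ventral striatal ones by 0.40 (SE 0.16, adjusted p = 0.048). mt-Tp differed by 1.35 between dorsal striatum and hypothalamus (SE 0.24, adjusted p = 4.52e-08), where its libraries overlapped (5.09 to 19.2 CPM against 1.56 to 9.67). mt-Te differed by 0.60 (SE 0.16, adjusted p = 0.000458), and its ranges also overlapped. Over the 13 tested tRNA genes, 9 were called higher in the dorsal striatum (56.1% of all genes tested were called in either direction) and 6 in the ventral striatum (43.6% of all genes) against the hypothalamus, with no call in the other direction. The count in the ventral striatum is near the background share.

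Of the 8 comparisons with WT, mitochondrial genes were called in 1, the KO dorsal striatum, where they were lower. In the KO dorsal striatum 3 of 25 tested genes were called, all lower (0.387% of all genes tested were called in either direction). The called genes were mt-Rnr2, mt-Co1 and mt-Nd1. The median log2 fold change was -0.65 over the 25 genes and -0.63 over the 10 mRNA genes, beside -0.00 over all genes tested, and 23 of 25 were below 0. The mitochondrial genes moved together across libraries: over the 28 libraries log2 CPM of the 7 well-counted mRNA genes correlated with r between 0.918 and 0.98 in 21 pairs, so their directions are not separate observations.

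mt-Rnr2 was at 230755 and 155799 CPM in WT replicates 1 and 2, at 116869, 154953 and 149568 in Het replicates 4, 5 and 6, and at 110461 and 118617 in KO replicates 7 and 8. WT replicate 1 stood far above all others, and the KO libraries were below both WT libraries. The log2 fold change of KO against WT was -0.75 (SE 0.18, adjusted p = 0.024). mt-Co1 was at 14529 and 10793 CPM in WT, 9893, 10960 and 10293 in Het and 8399 and 8437 in KO. WT replicate 2 lay within the range of the Het libraries and both KO libraries were below it. The fold change was -0.59 (SE 0.15, adjusted p = 0.0368). mt-Nd1 was at 14800 and 10117 CPM in WT, 7955, 9247 and 9828 in Het and 7872 and 7906 in KO. Its fold change was -0.66 (SE 0.18, adjusted p = 0.0496).

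The other well-counted genes gave values of similar size that did not pass. mt-Nd4 had -0.82 (SE 0.22, adjusted p = 0.0626), mt-Cytb -0.61 (SE 0.17, adjusted p = 0.0653), mt-Rnr1 -0.71 (SE 0.20, adjusted p = 0.068), mt-Nd2 -0.65 (SE 0.18, adjusted p = 0.0749), mt-Nd5 -0.65 (SE 0.19, adjusted p = 0.11) and mt-Nd6 -0.58 (SE 0.19, adjusted p = 0.163). mt-Nd6 was at 2132.5 and 1251 CPM in WT, 1402, 1218 and 1382 in Het and 1093 and 1165 in KO. Among the tRNA genes, mt-Tq had -1.01 (SE 0.30, adjusted p = 0.11), mt-Tp -0.90 (SE 0.42, adjusted p = 0.56) and mt-Te -0.63 (SE 0.29, adjusted p = 0.56).

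The 3 calls depended on single libraries and on the test. Without WT replicate 1 of the dorsal striatum 0 mitochondrial genes were called and the 3 genes had adjusted p-values between 0.696 and 0.797. The log2 fold changes were then -0.44 for mt-Rnr2, -0.36 for mt-Co1 and -0.36 for mt-Nd1, and the median of the mRNA genes was -0.38. Without WT replicate 2, 8 genes were called, the same 3 among them. Leaving out KO replicate 7 or KO replicate 8 also ended the calls. With edgeR's quasi-likelihood test 0 genes were called (adjusted p of the 3 genes between 0.113 and 0.172) and the median of the mRNA genes stayed at -0.63. With library size alone 0 genes were called (0.0601 to 0.194), where the median over all genes was 0.28, and the median of the mRNA genes was -0.33.

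**Figure D5:**
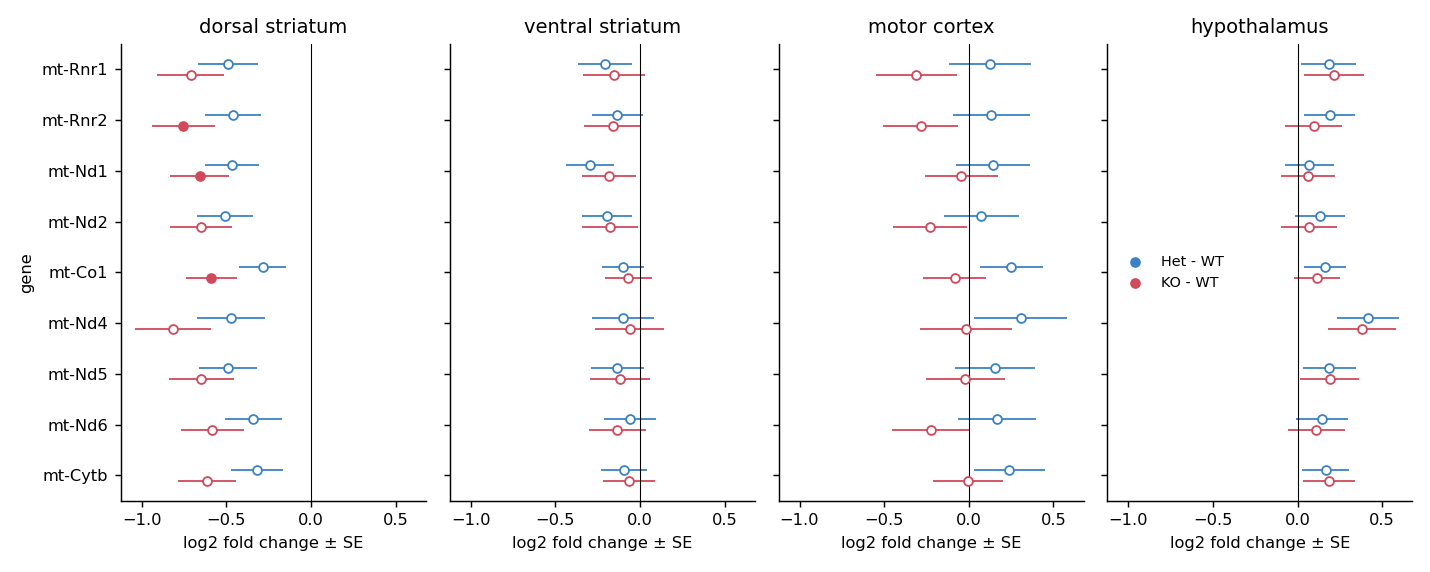
Log2 fold change (x axis, ± SE) of Het and KO against WT for the 2 rRNA genes and the 7 well-counted mRNA genes, 1 panel per region. Filled points passed an adjusted p of 0.05, which holds for mt-Rnr2, mt-Co1 and mt-Nd1 in the KO dorsal striatum. In the dorsal striatum all points lie between -0.82 and -0.29.

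Het libraries of the dorsal striatum gave a median of -0.38 over the 10 mRNA genes and -0.47 over the 7 well-counted ones. Of 25 mitochondrial genes, 0 were called (0.0868% of all genes tested) and 12 had an unadjusted p under 0.05. No share of all genes is given at an unadjusted p under 0.05, here or below. Such counts are therefore no measure of an excess, and the mitochondrial genes moved together. The lowest adjusted p was 0.293, for mt-Nd2 with -0.51 (SE 0.16). DESeq2 and the quasi-likelihood test also called 0. Het replicate 4 had the lowest mitochondrial share of the region, 31.9%, beside 40.1% in both other Het libraries. As a share of counts, the mRNA genes took 6.93% and 5.62% in WT, 5.36%, 5.42% and 5.52% in Het and 4.79% and 5.09% in KO, so the 3 genotypes did not overlap. The rRNA genes took 41.9% and 36.1% in WT, 26.6%, 34.7% and 34.5% in Het and 28.3% and 29.7% in KO, where Het and KO did overlap. WT replicate 1 had the highest mitochondrial share of all 28 libraries, at 48.8%.

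In the ventral striatum, 0 of 25 genes were called in KO (0.0801% of all genes tested) and 0 in Het (0.0534%). The medians over the mRNA genes were -0.15 and -0.17. The unadjusted p was under 0.05 for 2 tRNA genes in KO and for mt-Nd1 in Het (log2 fold change -0.30). The KO libraries differed from each other: replicate 7 had 41.2% mitochondrial counts, within the range of the 3 WT libraries (40.5% to 41.4%), and replicate 8, which had the lowest spiny neuron sum, had 34.2%. In the motor cortex the medians were -0.15 in KO and 0.20 in Het, with 0 called in either (0.0334% and 0.0134% of all genes tested) and 4 and 0 genes at an unadjusted p under 0.05. Its WT group was 1 library, so SE, p and calls there use the spread of the other groups, and the lone library is assumed to vary like them. It had a mitochondrial share of 31.8% (95% Wilson interval 31.77% to 31.86%) and lay between the Het libraries (33.5% and 33.9%) and the KO libraries (25.6% and 30.1%). Among the 3 most counted tRNA genes, mt-Tp had the largest difference there, -1.87 in KO (SE 0.56, adjusted p = 0.55). In the hypothalamus the medians were 0.09 in KO and 0.15 in Het, with 0 called in either (0.167% and 0.0935% of all genes tested) and 1 and 2 genes at an unadjusted p under 0.05. KO shares of 29.7% and 32.7% overlapped with WT shares of 28.6% to 31.9%. In these 6 comparisons the quasi-likelihood test and DESeq2 also called 0. The medians of this paragraph are over the 10 tested mRNA genes, the nearly empty ones included. Over the 7 well-counted mRNA genes they were -0.12 in KO and -0.099 in Het in the ventral striatum. They were -0.04 in KO and 0.17 in Het in the motor cortex, and 0.12 in KO and 0.16 in Het in the hypothalamus. KO and Het were compared with the same WT libraries in each region, so their values share the error of those libraries.

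Whether the dorsal striatal difference was particular to that region was tested as the KO effect there minus the mean of the KO effects in the ventral striatum and hypothalamus. No mitochondrial gene was called (0.0467% of all genes tested), with 11 at an unadjusted p under 0.05, and the quasi-likelihood test and DESeq2 also gave 0. The smallest adjusted p was 0.188, for mt-Nd4 at -0.98 (SE 0.27). For mt-Co1 the difference was -0.61 (SE 0.18, adjusted p = 0.275) and for mt-Rnr2 it was -0.72 (SE 0.22, adjusted p = 0.284). The KO effect in the dorsal striatum was thus not shown to differ from the mean of these regions, and the motor cortex was not in the contrast. Without KO replicate 8 of the ventral striatum 3 genes were called lower (mt-Co1, mt-Cytb and mt-Nd4).

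Over the number of knockout alleles, the log2 of mitochondrial counts per nuclear count had a slope of -0.34 per allele in the dorsal striatum (two-sided exact permutation test, p = 0.0476, adjusted over the 4 regions p = 0.19). The slope was -0.11 in the ventral striatum (exact p = 0.148), -0.18 in the motor cortex (exact p = 0.3) and 0.06 in the hypothalamus (exact p = 0.279), with adjusted p-values of 0.296 to 0.3. The smallest p the design allows is 0.00952 in the dorsal striatum and 0.0333 in the motor cortex. With the mRNA genes alone the slope in the dorsal striatum was -0.31 (exact p = 0.00952, adjusted p = 0.0381). For all mitochondrial genes together 0 slopes passed adjustment with every library in. When a library was left out, the slope ran from -0.404 (without WT replicate 2) to -0.234 (without WT replicate 1) in the dorsal striatum. It ran from -0.216 (without KO replicate 7, exact permutation test, adjusted p = 0.0286) to -0.0541 (without KO replicate 8) in the ventral striatum, from -0.22 (without KO replicate 8) to -0.058 (without KO replicate 7) in the motor cortex and from 0.0297 (without KO replicate 8) to 0.106 (without KO replicate 7) in the hypothalamus.

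Other measures of the dorsal striatal libraries are given beside these values. Of all genes tested there, 0.387% were called in KO and 0.0868% in Het, in either direction. The 12 oligodendrocyte genes summed to 5096.5 and 4494 CPM of nuclear counts in WT, 6276 to 6647 in Het and 6617.5 and 8734 in KO, and 3 of the 12 were called higher in KO, with all 12 above 0. The 5 nuclear long noncoding RNAs, *Malat1* among them, summed to 7331 and 6094 in WT, 3567 to 4254 in Het and 5133 and 4383 in KO, with 0 of 5 called in KO and 1 called lower in Het. Spiny neuron genes summed to 15364.5 in WT replicate 1 and to between 10728 and 12720.5 in the other 6 libraries, with 0 of 10 called in KO and all 10 below 0. Of 6 choroid plexus genes tested, 5 were called higher in KO, where replicate 8 carried them, and all 10 genes of the list had a sum of 253 in KO replicate 7. Reads that fell on no annotated feature equalled 42.6% of the counts on genes in Het replicate 4 and 20.6% to 35.7% in the other dorsal striatal libraries, with both KO libraries (30.5% and 35.7%) above both WT libraries (20.6% and 23.9%). The 8 immediate early genes, which neuronal activity induces, summed to 1352 and 1958 in WT, 1478 to 2716.5 in Het and 972 and 923 in KO, with 1 called lower in KO and 7 of 8 below 0. The 8 cortical excitatory neuron genes summed to 636 in KO replicate 7 and to between 130 and 281 in the other 6 libraries, with 0 of 8 called in KO, 7 of 8 above 0 and a median of 1.39. The astrocyte, microglia, endothelial, blood and hypothalamic lists also had 0 genes called in KO. The part of these measures in the mitochondrial values was not tested.

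Genes of the nucleus serve the mitochondrial genome. A list of 41 genes covered its replication, transcription and RNA processing, and regulators of nuclear genes (*Ppargc1a*, *Ppargc1b*, *Nrf1*, *Gabpa* and *Esrra*). Of these 41 genes, 40 were found and 39 were tested. In the 8 genotype comparisons 0 were called, where between 0.0134% and 0.387% of all genes were called. In the KO dorsal striatum their median log2 fold change was -0.07, beside -0.00 over all genes. *Tfam*, which packages and helps to transcribe mitochondrial DNA, had 0.24 there (SE 0.23, adjusted p = 0.861). Between regions they were called in both directions, for example 13 higher and 7 lower in the dorsal striatum against the hypothalamus, where 56.1% of all genes were called. *Ppargc1b*, a transcriptional coactivator of mitochondrial genes in the nucleus, was at 34.0 to 43.7 CPM in the dorsal striatum and 14.7 to 21.9 in the hypothalamus, higher by 1.08 (SE 0.09, adjusted p = 1.22e-30). *Ptcd1*, a mitochondrial RNA-binding protein, was higher by 1.17 (SE 0.13, adjusted p = 1.44e-19), while *Tfam* was lower by 0.48 (SE 0.12, adjusted p = 9.67e-05). *Ppargc1a*, on the same list as *Ppargc1b*, lay at 59.8 to 112 CPM in the dorsal striatum and 82.8 to 129 in the hypothalamus, with overlapping ranges.

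The 80 tested nuclear genes that were picked by symbol as subunits of the respiratory chain and ATP synthase had 0 called in the genotype comparisons. Their median in the KO dorsal striatum was -0.04. Between dorsal striatum and hypothalamus 11 were called higher and 15 lower (56.1% of all genes were called), with a median of -0.05 beside -0.04 over all genes tested, whereas the 10 mitochondrial mRNA genes had a median of 0.80 and 9 called higher. Between ventral striatum and hypothalamus 3 were called higher and 12 lower (43.6% of all genes).

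The nuclear genes whose log2 CPM was most like that of mt-Co1 over the 28 libraries were *Fam120a* (Pearson r = 0.93), *Arpc2* (0.93), *Wdr17* (0.92), *Plppr4* (0.917) and *Gatad2b* (0.914). These points share regions, mice and TMM factors, and the values are given as a description.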

How the data were processed

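RNA was taken from dissected brain regions, and libraries were made with NuGEN Ovation RNA-Seq V2 and read as single 50-base reads. The authors trimmed reads with Trimmomatic 0.32, removed rRNA reads with Bowtie2 2.2.3, aligned the rest with STAR 2.3.1z8 to GRCm38 with Ensembl 75, and counted uniquely mapped reads per gene with HTSeq 0.6.1p1. The deposited values are these raw counts, and the 6 rows that name no gene stayed out of library sizes. Gene names, positions and sequences came from GENCODE M21, which named 28758 of 29878 listed genes.

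Counts were TMM-scaled, genes above 1 CPM in at least 2 of 28 libraries were kept, and glmFit and glmLRT of edgeR 4.0.16 (R 4.3.3) were run with 1 mean for each of 12 groups and Benjamini-Hochberg adjustment over 14979 genes. SE is the log2 fold change divided by the square root of the likelihood ratio. Regions are means of their genotype means. Shares were tested with 100000 permutations of regions within a mouse number (smallest p 1e-05), and slopes over alleles with exact permutation tests. Alternatives were other scalings, DESeq2 1.42.0, the quasi-likelihood test, no filter, libraries of 1 region alone, a replicate block and leaving out each library.

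All mitochondrial genes may be named, with full values for the rRNA genes, for the called mRNA genes (at most the 5 with the smallest p per comparison) and for the 3 most counted tRNA genes. The genes and lists were chosen with earlier results of these data known. Library totals of 3536802 to 5150280 counts set the precision. The 21 pairs of libraries within groups differed by more than sampling noise (chi-square per degree of freedom 1.78 to 13.3). Scripts were tested on simulated data.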

Additional observations from a re-analysis of the deposited data

Results flagged for a closer look

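In each region, 8 measures were searched for a library far from the others (32 sets of 5 to 8 libraries). They were measures of the mitochondrial counts and, as 1 of the 8, the reads on no annotated feature. The search found 4 values in 3 libraries, where chance finds about 1 in 20 sets. Several measures hold the same counts, so the sets are not separate. The mRNA share of WT replicate 1 of the dorsal striatum, 6.93%, stood above the other 6 libraries of the region (4.79% to 5.62%). The rRNA counts of Het replicate 4 of the dorsal striatum were 4.96 times its mRNA counts, below the others of the region (5.83 to 6.42). In KO replicate 7 of the motor cortex the same ratio was 5.62, below 7.07 to 7.52 in the other 4 libraries. There mt-Nd6 also made up 1.97% of the mitochondrial mRNA counts, the lowest share in its region.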

How the results depend on the processing

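The 3 genes called in the KO dorsal striatum fell to 0 with library size alone, with the quasi-likelihood test and with only the libraries of that region, to 2 without a filter (mt-Rnr2 and mt-Nd4) and to 2 when scaled to nuclear genes, and stayed at 3 with DESeq2. Leaving out a library gave 0 to 8, with 0 without WT replicate 1, KO replicate 7 or KO replicate 8. The cause of these losses was not tested. The share of all genes called in each alternative is not given beside the counts in this section, so they have no background. In the KO motor cortex 1 gene, mt-Tp, was called with only the libraries of that region. In the Het dorsal striatum leaving out a library gave 0 to 6 (6 without WT replicate 2). Between the striatal regions the 6 calls became 2 with library size alone and 2 to 10 when a library was left out (2 without KO ventral striatum replicate 8 or WT dorsal striatum replicate 1, 10 without Het dorsal striatum replicate 4 or WT dorsal striatum replicate 2). The 7 calls between motor cortex and hypothalamus became 0 with library size alone. The difference of KO effects gave 0 to 3 calls, with 3 (mt-Co1, mt-Cytb and mt-Nd4) without KO ventral striatum replicate 8. The dorsal striatal slope per allele was -0.306 with the protein-coding genes only and -0.306 without the rRNA genes (exact permutation test, adjusted p = 0.0381 in both), and the ventral striatal slope was -0.216 to -0.0541 when a library was left out (-0.216 without KO replicate 7, exact adjusted p = 0.0286).

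Same-numbered libraries did not deviate together (mean r 0.007, from -0.08 to 0.086, 34 pairs, 0 above 0.1). Deviations sum to 0 within each small group, and regions of 1 mouse need not deviate together. These values therefore do not show whether the numbers pair the samples. With the replicate block, calls were 4 between the striatal regions, 16 between dorsal striatum and motor cortex, 20 between dorsal striatum and hypothalamus, 10 and 18 for the ventral striatum, 8 between motor cortex and hypothalamus and 0 for the difference of KO effects. For this fit too, the share of all genes called is not given. Mouse numbers lie within genotypes, so the genotype comparisons have no block. The motor cortex has 1 WT library, which was not left out. Regions still passed for all 4 shares with all tallied reads as the total (mitochondrial share 31.3% of the sum of squares).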
